A study of Homo sapiens with 20 samples.

Results

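MDA-MB-468 cells that had received epidermal growth factor (EGF) for 72 h were compared with cells that had received it for 24 h, to describe what a longer exposure adds to or takes from the earlier state. The comparison uses 8 of the 20 libraries of the series, 4 for each time, and both groups received 50 ng/mL EGF after serum starvation. MDA-MB-468 is an established epithelial line from a triple-negative breast cancer, known for its many copies of the EGF receptor gene, and all libraries come from this one line, which was neither authenticated nor tested for mycoplasma after it was delivered. All groups were plated and lysed on the same schedule and differed in when EGF was added, so that the time spent in culture before EGF also differed, and its part cannot be told apart from that of the time in EGF. The 4 samples of a group are labelled as biological replicates with no date or passage. The p-values rest on the spread between cultures within groups, estimated per gene over all 20 libraries of the series.

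EGF binds its receptor EGFR and, through the RAS and ERK kinases, first induces immediate early transcription factors and then the feedback inhibitors that limit the signal. In epithelial tumor cells a lasting signal of this kind can start an epithelial-mesenchymal transition (EMT), in which cell junctions loosen, vimentin filaments form and matrix proteins are secreted. The same receptor also drives cell cycle entry, and in skin and mucosal epithelia it is known to govern keratinization and wound responses.

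Messenger RNA was measured by sequencing of Lexogen Corall libraries with single-end reads, and the deposited values are whole numbers per gene, which may be read counts or rounded estimates. The total per library was 16120115 to 21419262 counts at 24 h and 15611961 to 25856953 at 72 h. Levels are given as CPM, the count relative to the total of its library, after scaling by trimmed means (TMM) in edgeR, which allows a gene to be compared between libraries but not with a gene of another length. Mitochondrially encoded RNA held 11.1 to 13.8% of the counts at 24 h and 12.3 to 16.4% at 72 h, and its part in the results was not tested except by leaving these genes out. Replicate 1 of the 24 h group lay at 8.10 on the first principal component and the other 3 at 12.6 to 15.1, and over genes with at least 5 CPM it was the lowest of its group for 3671 of 10588. Of 10 markers used to check the line, 9 passed the filter on low counts, among them EGFR and the keratins KRT8, KRT18 and KRT5. The 10 include ESR1, ERBB2 and PGR, which are expected to be low or absent in a triple-negative line. ESR1 and ERBB2 were among the 9 that passed, and the progesterone receptor gene PGR had 0 counts in all libraries. Of 16 markers of blood, vessel, stromal and other cells, 14 were below the filter and 3 of these had 0 counts in the 8 libraries. Their summed level was 4.73 to 8.21 CPM at 24 h and 8.21 to 9.07 CPM at 72 h. CD14, a coreceptor of monocytes, rose from 2.32 ± 0.572 to 4.36 ± 0.269 CPM (± SD, n = 4, as for all means below). Whether any such cells were present, or had a part in the results, was not tested. In bulk libraries such as these, a lower number of cells that express a gene and a lower level in each cell cannot be told apart.

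Between 24 and 72 h, 6650 of 16522 genes tested were called, which is 40.2%, with an adjusted p under 0.05 from edgeR's quasi-likelihood test. Of these, 3402 genes (20.6% of those tested) were higher at 72 h and 3248 (19.7%) were lower, nearly even in number. Scaled by library size alone, 4001 were higher and 2386 lower. The directions were not even in size. A rise of more than 1.5-fold was found for 2065 genes (12.5%), and a fall by more than 1.5-fold for 720 (4.36%). Above 2-fold the numbers were 1165 higher and 176 lower, and above 4-fold they were 333 and 22. For 5804 of the 6650 called genes, all 4 libraries at 72 h lay on the same side of all 4 libraries at 24 h. Over all 16522 genes tested, called or not, this held for 6798. The call and this count rest on the same libraries. Of 2403 long noncoding RNAs tested, 677 were called higher and 123 lower, beside 20.6% and 19.7% of all genes tested.

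**Figure D1:**
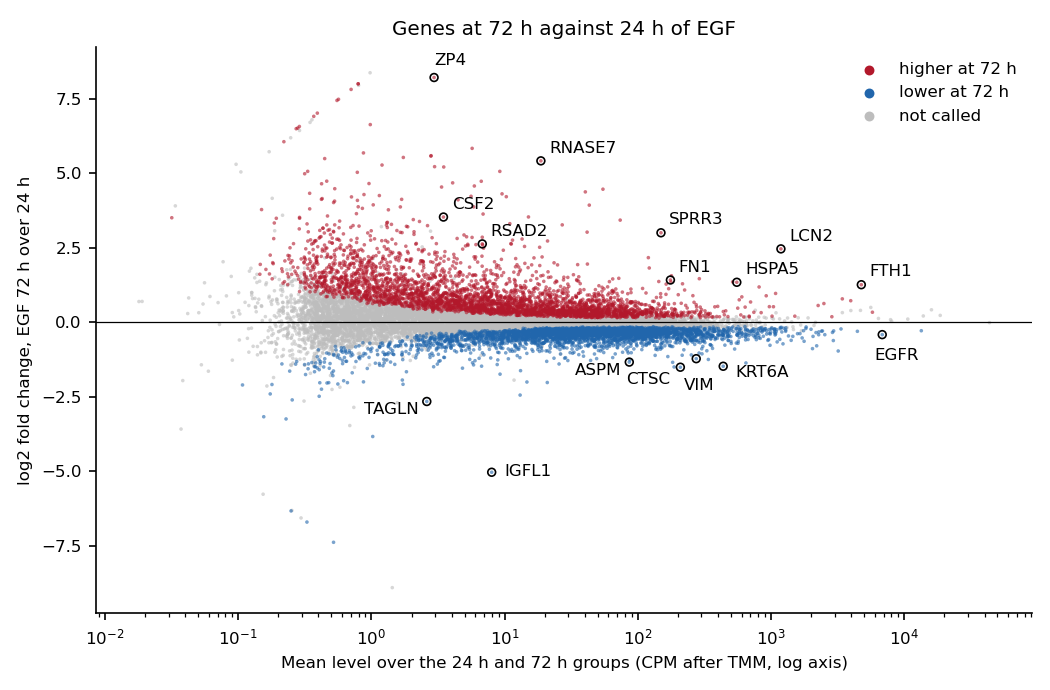
Each point is 1 of the 16522 genes tested, with its mean level over both groups in CPM on a log axis and its log2 fold change at 72 h over 24 h. Red and blue points are the 3402 and 3248 genes called higher and lower, and circles mark 16 genes described in the text, from ZP4 at 8.22 to IGFL1 at -5.03.

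The 12 largest rises were taken among called genes with at least 5 CPM in the higher group and groups that did not overlap. They were of genes that were close to silent at 24 h. ZP4, a gene of the egg coat, had 1 count over the 4 libraries at 24 h together and 458 counts at 72 h, a ratio of 440 with a 95% exact interval of 78.5 to 17400 that covers counting error only. RNASE7, an antimicrobial ribonuclease of epithelia, was at 0.445, 0.678, 0.641 and 1.56 CPM in the 4 libraries at 24 h and at 43.6, 37.0, 31.7 and 34.0 CPM at 72 h. Its log2 fold change was 5.42 ± 0.26 (SE), adjusted p = 4.03e-13. SPINK1, a secreted trypsin inhibitor, rose from 0.487 ± 0.213 to 12.9 ± 1.89 CPM, and GDF15, a secreted stress cytokine, from 0.463 ± 0.104 to 11.4 ± 1.88 CPM. MUC4, a membrane mucin that can bind the receptor ERBB2, rose from 0.182 ± 0.183 to 6.80 ± 0.736 CPM. That the groups did not overlap was a condition for choosing these genes and is not a result. FILIP1, which regulates filamin, rose to 5.51 ± 0.484 CPM, and the noncoding transcripts COMETT, LINC01897, LINC01828, AL355607.2 and AL442128.1 reached means of 5.48 to 17.9 CPM from 0.106 to 0.522 CPM. UGT1A1, a glucuronidation enzyme whose later exons are shared by its whole gene cluster, was the least even, at 9.56, 6.60, 0.949 and 14.2 CPM in the 4 libraries at 72 h, and its log2 fold change of 4.69 had an SE of 1.02.

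The 12 largest falls were likewise taken among genes with at least 5 CPM in the higher group, and with groups that did not overlap. Of these 12, 10 were of genes whose mean at 24 h was above that of untreated cells. IGFL1, a secreted ligand of the insulin-like growth factor family (GRCh38 19:46229752-46231243, plus strand), was at 17.4, 16.6, 13.02 and 14.9 CPM in the 4 libraries at 24 h. At 72 h it was at 0.308, 0.569, 0.391 and 0.703 CPM, a log2 fold change of -5.03 ± 0.22 (SE), adjusted p = 3.78e-14, with no overlap between the groups. Its mean had been 1.90 CPM in untreated cells and 63.0 CPM at 12 h. The secreted proteins MUCL1 and CRISP3, the other members of the 12, had been highest without EGF. CRISP3 was at 23.5 CPM at 24 h and 5.93 CPM at 72 h (log2 fold change -1.999 ± 0.11), against 331 CPM in untreated cells, and MUCL1 went from 22.1 to 4.06 CPM against 77.1 CPM untreated. The decoy receptor IL13RA2, the progestin receptor PAQR5, the surface protein LY6D, the death receptor inhibitor FAIM2, the intermediate filament gene NES and the growth factor gene PDGFA fell with log2 fold changes of -2.02 to -1.42. CTSC, PI3 and KRT6A, which complete these 12 falls, are described with their gene groups.

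**Figure D2:**
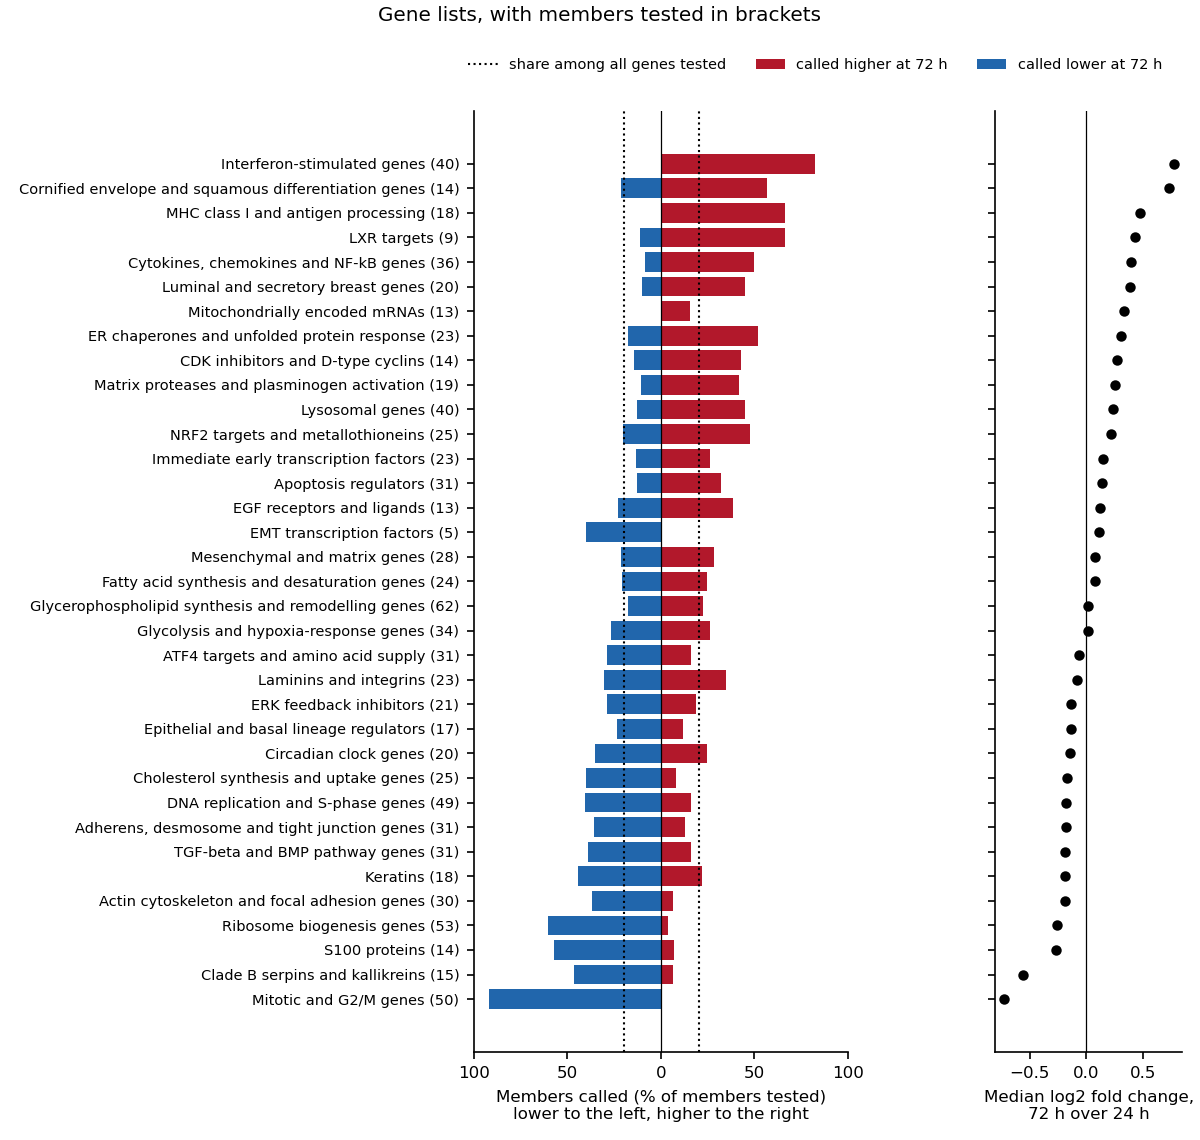
For each of 35 gene lists, bars give the share of members tested that were called higher (right) or lower (left) at 72 h, dotted lines the shares among all genes tested (20.6% and 19.7%), and points the median log2 fold change. Interferon-stimulated genes are at the top, with 82.5% of members higher, and mitotic genes at the bottom, with 92% lower.

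The counts of list members called below stand beside 20.6% higher and 19.7% lower among all genes tested. The clearest loss was of mitotic genes. Of 50 genes that serve the G2 phase and mitosis, such as spindle motors, kinetochore proteins and mitotic kinases, 46 were lower at 72 h and 0 were higher. The 4 that were not called were HMMR, CDCA3, CCNF and AURKB. Their median log2 fold change was -0.73, beside 0.003 over all genes tested, and 35 of the 46 fell by more than 1.5-fold. The spindle pole gene ASPM was at 122, 115, 132 and 124 CPM in the 4 libraries at 24 h and at 44.6, 50.6, 49.1 and 52.1 CPM at 72 h. The mitotic kinesin KIF14 was at 41.5, 41.4, 44.8 and 41.1 CPM and then at 15.2, 18.0, 18.2 and 18.3 CPM. For both, every library at 72 h was below every library at 24 h, with log2 fold changes of -1.33 ± 0.10 (SE), adjusted p = 6.22e-10 for ASPM and -1.28 ± 0.11 (SE), adjusted p = 1.97e-09 for KIF14. CENPE, a kinetochore motor, fell from 39.3 ± 2.40 to 17.1 ± 1.64 CPM, and NEK2, a kinase of the centrosome, from 39.7 ± 4.18 to 17.6 ± 2.36 CPM. At 24 h these 4 genes were near their untreated levels, which were 107 CPM for ASPM, 39.8 for KIF14, 43.9 for CENPE and 44.6 for NEK2, so the fall took them below cells without EGF. With mitochondrial genes left out, 46 members were called again.

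The promoters of ASPM and KIF14, the members with the largest falls, are shown because many promoters of the list hold the same letters. They are taken from RefSeq on GRCh38.p14, with 250 bases before and 50 after the annotated start, and capitals mark the CCAAT box, known to be bound by NF-Y, and the cell cycle homology letters TTTGAA or TTTAAA, on either strand. ASPM is on the minus strand at chr1:197146620-197146919 and KIF14 on the minus strand at chr1:200620702-200621001.
ASPM: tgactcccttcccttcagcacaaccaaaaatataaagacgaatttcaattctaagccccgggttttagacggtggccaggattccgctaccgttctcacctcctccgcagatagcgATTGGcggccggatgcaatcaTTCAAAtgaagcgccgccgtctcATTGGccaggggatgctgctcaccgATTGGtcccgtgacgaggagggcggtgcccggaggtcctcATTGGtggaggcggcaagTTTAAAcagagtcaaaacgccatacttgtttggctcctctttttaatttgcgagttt
KIF14: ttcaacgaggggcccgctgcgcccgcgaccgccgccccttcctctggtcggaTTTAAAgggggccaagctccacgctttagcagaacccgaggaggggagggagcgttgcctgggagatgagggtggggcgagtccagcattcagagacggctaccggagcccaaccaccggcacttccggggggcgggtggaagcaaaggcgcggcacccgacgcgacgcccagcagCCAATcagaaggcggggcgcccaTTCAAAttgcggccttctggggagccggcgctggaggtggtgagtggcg
Of 43 members found in the promoter table, 35 (81.4%) held TTTGAA or TTTAAA and 32 (74.4%) held CCAAT, against 24.3% and 35.7% of all 27305 promoters in the table, and 16.4% and 36.7% of those of genes tested here. In ASPM the nearest CCAAT began 25 bases before the start and the nearest TTTAAA 7 bases before it. CENPE, the member with the next largest fall, held TTTAAA but no CCAAT on either strand in this window. A match of letters is a description of the sequence and shows no binding.

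Genes of DNA replication and S phase moved less and in both directions. Of 49 members tested, 20 were lower, 8 were higher and 21 were not called, with a median log2 fold change of -0.18, and none fell by more than 1.5-fold. MCM4 and MCM6, subunits of the replicative helicase, fell from 93.7 to 65.3 CPM and from 151 to 109.9 CPM. TK1 and RRM2, enzymes that supply nucleotides, rose from 24.2 to 35.2 CPM and from 304 to 365 CPM. Inhibitors of the cell cycle and D-type cyclins were more often higher, with 6 of 14 higher and 2 lower. In place of 8, 5 members were called without replicate 3 at 24 h and 4 without replicate 4 at 72 h. CDKN1A, the inhibitor p21, rose from 324 ± 58.0 to 471 ± 61.0 CPM (log2 fold change 0.54 ± 0.11), and GADD45A, induced by DNA damage and stress, from 101 ± 14.9 to 164 ± 6.34 CPM, and neither gene's groups overlapped. BTG1, an antiproliferative gene, rose with a log2 fold change of 0.43 ± 0.09.

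Ribosome biogenesis supplies growing cells with ribosomes. Of its 53 members, 32 were lower, 2 were higher and 19 were not called, with a median log2 fold change of -0.26. The nucleolar proteins NPM1 and NCL fell from 3541 to 2324 CPM and from 213 to 137 CPM. UTP20, which takes part in ribosomal RNA processing, and GNL3L, a nucleolar GTPase, fell with log2 fold changes of -0.86 ± 0.09 and -0.77 ± 0.08. For these 4 genes every library at 72 h was below every library at 24 h.

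The clearest gain was of interferon-stimulated genes, which cells normally switch on in answer to virus infection. Of 40 members tested, 33 were higher at 72 h, 7 were not called and 0 were lower. The median log2 fold change was 0.77, the highest of all lists, and 25 rose by more than 1.5-fold. RSAD2, the antiviral enzyme viperin, was at 2.08, 1.70, 1.80 and 1.90 CPM in the libraries at 24 h and at 10.02, 13.1, 10.6 and 13.2 CPM at 72 h. Its log2 fold change was 2.64 ± 0.15 (SE), adjusted p = 3.66e-12, and the groups were far apart. IFIT1, which binds foreign RNA, rose from 0.471 ± 0.0937 to 3.70 ± 0.542 CPM, IFI44L from 0.105 ± 0.111 to 1.49 ± 0.267 CPM and IFI16, a DNA sensor, from 0.25 ± 0.0824 to 1.42 ± 0.327 CPM. Levels were low throughout, and the untreated cells held 4.96 CPM of RSAD2, 8.54 CPM of IFIT1 and 1.10 CPM of IFI44L. Relative to untreated cells, the mean at 72 h was therefore higher for RSAD2 and IFI44L and lower for IFIT1, while at 24 h all 3 were below the untreated mean. IFI16 was at 0.218 CPM in untreated cells, close to its level at 24 h.

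The promoters of IFI44L and IFIT1, with the largest rises, are shown for the same reason, from the same source. Capitals mark the interferon-stimulated response element (ISRE), searched as GAAA, any pair of bases and GAAA on either strand. Both genes are on the plus strand, IFI44L at chr1:78620198-78620497 and IFIT1 at chr10:89392373-89392672.
IFI44L: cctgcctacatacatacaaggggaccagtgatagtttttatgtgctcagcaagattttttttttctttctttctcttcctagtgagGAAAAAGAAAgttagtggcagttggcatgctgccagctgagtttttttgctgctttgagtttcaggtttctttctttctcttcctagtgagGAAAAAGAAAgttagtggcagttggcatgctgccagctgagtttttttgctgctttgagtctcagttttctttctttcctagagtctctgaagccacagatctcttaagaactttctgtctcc
IFIT1: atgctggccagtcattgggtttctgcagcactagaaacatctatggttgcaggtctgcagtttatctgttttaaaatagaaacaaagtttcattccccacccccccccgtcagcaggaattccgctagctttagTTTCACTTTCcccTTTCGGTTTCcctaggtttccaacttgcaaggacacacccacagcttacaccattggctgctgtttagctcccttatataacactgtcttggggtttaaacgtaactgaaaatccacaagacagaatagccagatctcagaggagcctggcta
Of 30 members found in the table, 18 (60%) held such a match, against 3.65% of all promoters and 2.84% of those of genes tested. Among the mitotic genes the share was 2.33%, and CCAAT was found in 33.3% of the interferon-stimulated genes. RSAD2 held 0 matches in this window. In IFIT1 the matches lie 116 and 103 bases before the start, and in IFI44L 164 and 73 bases before it.

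**Figure D3:**
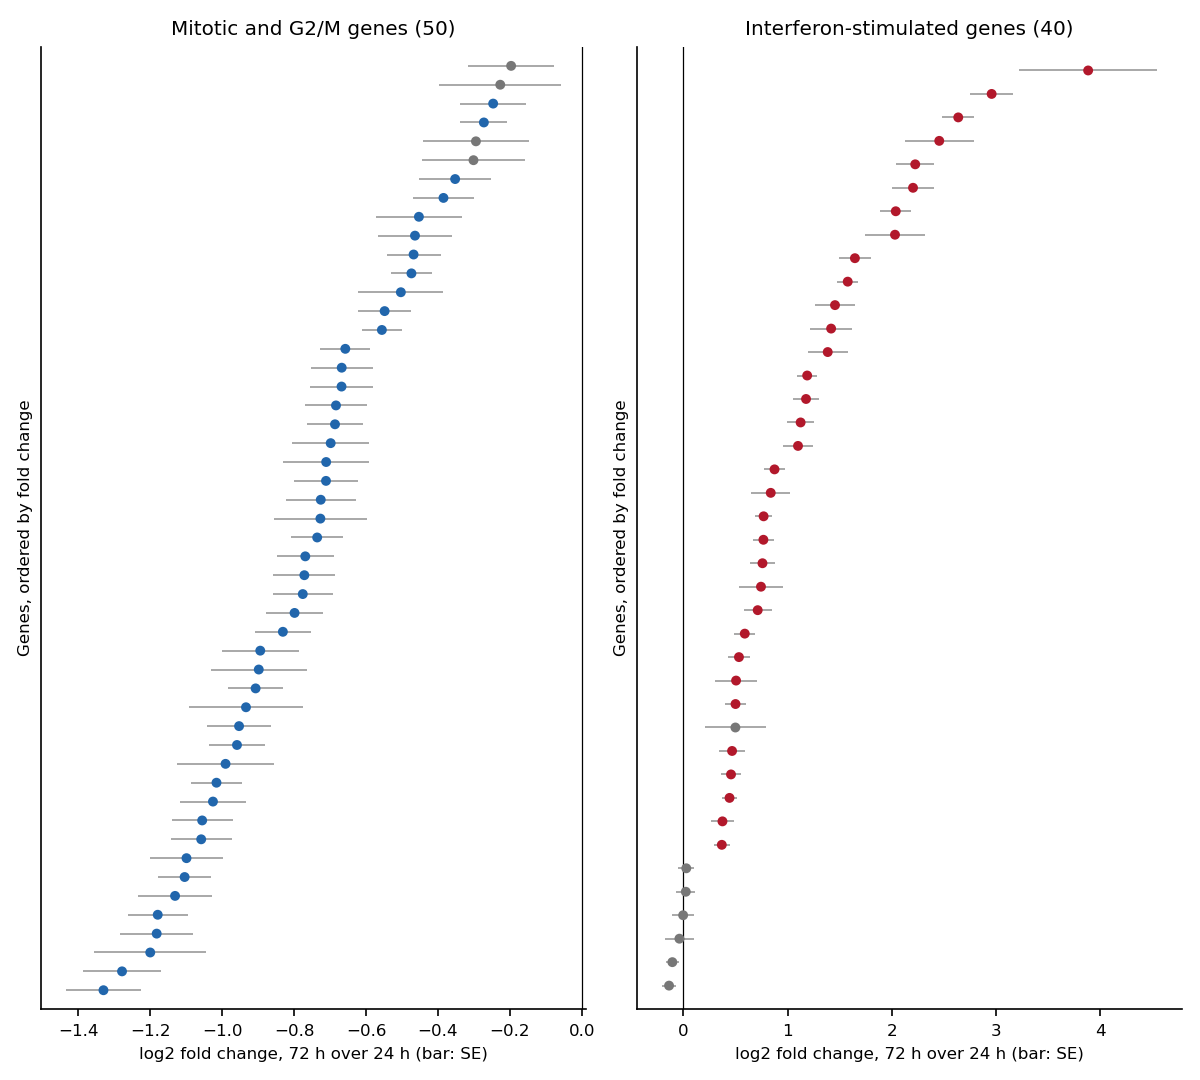
Points, ordered by value, give the log2 fold change at 72 h over 24 h of each member tested of the mitotic list (left, 50 genes) and of the interferon-stimulated list (right, 40 genes), and bars the SE. Blue and red points were called lower and higher, gray points were not called, and all 50 mitotic genes lie below 0.

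Genes of MHC class I antigen presentation moved in the same direction. Of 18 members tested, 12 were higher, 6 were not called and 0 were lower, with a median log2 fold change of 0.47. HLA-B was at 93.8, 94.5, 111 and 99.2 CPM at 24 h and at 256, 241, 259 and 263 CPM at 72 h, a log2 fold change of 1.35 ± 0.09 (SE), adjusted p = 2.74e-11, with no overlap. HLA-F rose from 3.82 ± 0.569 to 14.2 ± 0.788 CPM, and PSMB9, a subunit of the immunoproteasome, from 4.10 ± 0.730 to 10.5 ± 0.491 CPM. HLA genes are alike in sequence, so reads may be divided between them. CD274, the checkpoint ligand PD-L1, rose from 4.00 ± 0.902 to 12.3 ± 1.43 CPM, after 0.261 CPM in untreated cells and 14.7 CPM at 12 h.

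Inflammatory genes were more often higher than lower. Of 36 cytokine, chemokine and NF-kB genes, 18 were higher, 3 lower and 15 not called, with a median log2 fold change of 0.40. CSF2, which encodes the growth factor GM-CSF, was at 0.198, 0.508, 0.833 and 0.683 CPM at 24 h and at 7.09, 7.40, 5.19 and 5.88 CPM at 72 h. IL1B rose from 0.260 ± 0.211 to 1.71 ± 0.237 CPM, and the chemokines CXCL10 and CXCL2 from 0.397 to 2.18 CPM and from 0.545 to 2.72 CPM. No library at 72 h overlapped with the 24 h group for these 4 genes, but all had means under 10 CPM. In the other direction, IL18, which epithelia store as a precursor, fell from 289 ± 27.4 to 153 ± 4.62 CPM, and NFKB1, a subunit of NF-kB, from 32.8 ± 1.203 to 23.3 ± 0.338 CPM.

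Genes of squamous epithelia moved in different directions by kind. Of 14 tested genes of the cornified envelope, the protein shell of terminally differentiated keratinocytes, 8 were higher and 3 lower, with a median log2 fold change of 0.73. SPRR3, a small proline-rich protein of that shell (GRCh38 1:153001747-153003856, plus strand), was at 25.9, 32.6, 33.4 and 39.8 CPM at 24 h and at 286, 258, 242 and 275 CPM at 72 h. That is a log2 fold change of 3.01 ± 0.11 (SE), adjusted p = 1.07e-15, with the groups well apart. Its relatives SPRR2A and SPRR2D, near-identical copies between which reads may be divided, rose from 9.11 to 74.1 CPM and from 5.48 to 36.5 CPM. CSTA, an inhibitor of cysteine proteases, rose from 1.31 ± 0.209 to 5.06 ± 0.395 CPM. PI3, the elastase inhibitor elafin, went the other way, from 276 ± 25.3 to 98.0 ± 9.11 CPM.

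Keratins, the filaments of epithelial cells, were more often lower, with 8 of 18 lower and 4 higher and a median log2 fold change of -0.19. KRT6A, known from wounds and activated keratinocytes, was at 541, 686, 623 and 719 CPM at 24 h and at 269, 225, 219 and 214 CPM at 72 h. The groups did not overlap, and the log2 fold change was -1.47 ± 0.10 (SE), adjusted p = 2.74e-11. KRT6B, so alike that reads may be divided between them, fell from 343 ± 18.7 to 161 ± 11.3 CPM. The basal keratin KRT5 fell from 475 ± 31.2 to 201 ± 11.7 CPM, and the simple epithelial keratins KRT18, KRT8 and KRT19 with log2 fold changes of -0.88, -0.63 and -0.69. KRT4, of mucosal epithelia, rose from 3.61 ± 0.641 to 8.15 ± 0.437 CPM.

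Among clade B serpins, which inhibit proteases inside cells, and kallikreins, which are skin proteases, 7 of 15 were lower and 1 higher, with a median log2 fold change of -0.56. SERPINB1 fell from 932 ± 78.8 to 363 ± 31.9 CPM, and SERPINB5, or maspin, from 386 ± 84.5 to 189.6 ± 26.0 CPM, both with no overlap. KLK7 and KLK10 fell with log2 fold changes of -0.87 ± 0.11 and -0.87 ± 0.09. Of 14 S100 calcium-binding proteins, 8 were lower, among them S100A10, S100A14 and S100A7 at log2 fold changes of -0.63, -0.74 and -0.55. The exception was S100P, which rose from 495 ± 41.0 to 1131 ± 70.1 CPM (1.19 ± 0.08 (SE), adjusted p = 9.53e-11) and was the 1 member of that list called higher.

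Desmosomes anchor keratin filaments at cell contacts, and the largest falls among junction genes were of their cadherins. Of 31 junction genes, 11 (35.5%) were lower, 4 (12.9%) higher and 16 not called, with a median log2 fold change of -0.18. The share called was 48.4%, beside 40.2% of all genes tested. The desmosomal cadherin DSC3 was at 58.2, 63.3, 66.0 and 62.7 CPM at 24 h and at 26.8, 26.5, 26.1 and 23.8 CPM at 72 h, a log2 fold change of -1.27 ± 0.07 (SE), adjusted p = 6.78e-13. DSG3 and DSC2, of the same kind, and the plaque protein DSP fell with log2 fold changes of -1.09, -0.74 and -0.87, and for all 4 genes every library at 72 h was lower. CLDN1, a claudin of tight junctions, rose from 49.3 ± 9.69 to 77.3 ± 5.69 CPM and PKP1, a plaque protein of desmosomes, from 4.70 ± 0.516 to 7.195 ± 0.564 CPM. E-cadherin, CDH1, was at 103 ± 8.29 CPM at 24 h and 90.6 ± 5.49 CPM at 72 h, with overlapping groups, and was not called (adjusted p = 0.0822). It was called lower with replicate 1 of the 24 h group left out, at -0.22 and adjusted p = 0.0416.

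Genes of mammary secretory and luminal epithelium were more often higher. Of 20 tested, 9 were higher and 2 lower, with a median log2 fold change of 0.39 and single members from -3.16 to 5.22. LCN2, the iron-binding secreted protein lipocalin 2 (GRCh38 9:128149071-128153455, plus strand), was at 351, 365, 358 and 376 CPM at 24 h. At 72 h it was at 2061, 1906, 2009.9 and 2054 CPM, a log2 fold change of 2.47 ± 0.09 (SE), adjusted p = 1.41e-15, and the libraries of each group lay close together. AGR2, which folds mucins in the endoplasmic reticulum, rose from 43.4 ± 6.37 to 196 ± 10.3 CPM, and the mucin MUC20 from 6.83 ± 0.538 to 31.4 ± 1.82 CPM. Together with MUC4 above, these were the members with the largest rises. The secreted proteins MUCL1 and CRISP3, whose falls are given above, were not on this list. Of 17 regulators of epithelial lineages, 4 (23.5%) were lower and 2 (11.8%) higher, so that 35.3% were called beside 40.2% of all genes tested. TP63, the master factor of basal epithelia, rose from 0.740 ± 0.175 to 1.89 ± 0.351 CPM.

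**Figure D4:**
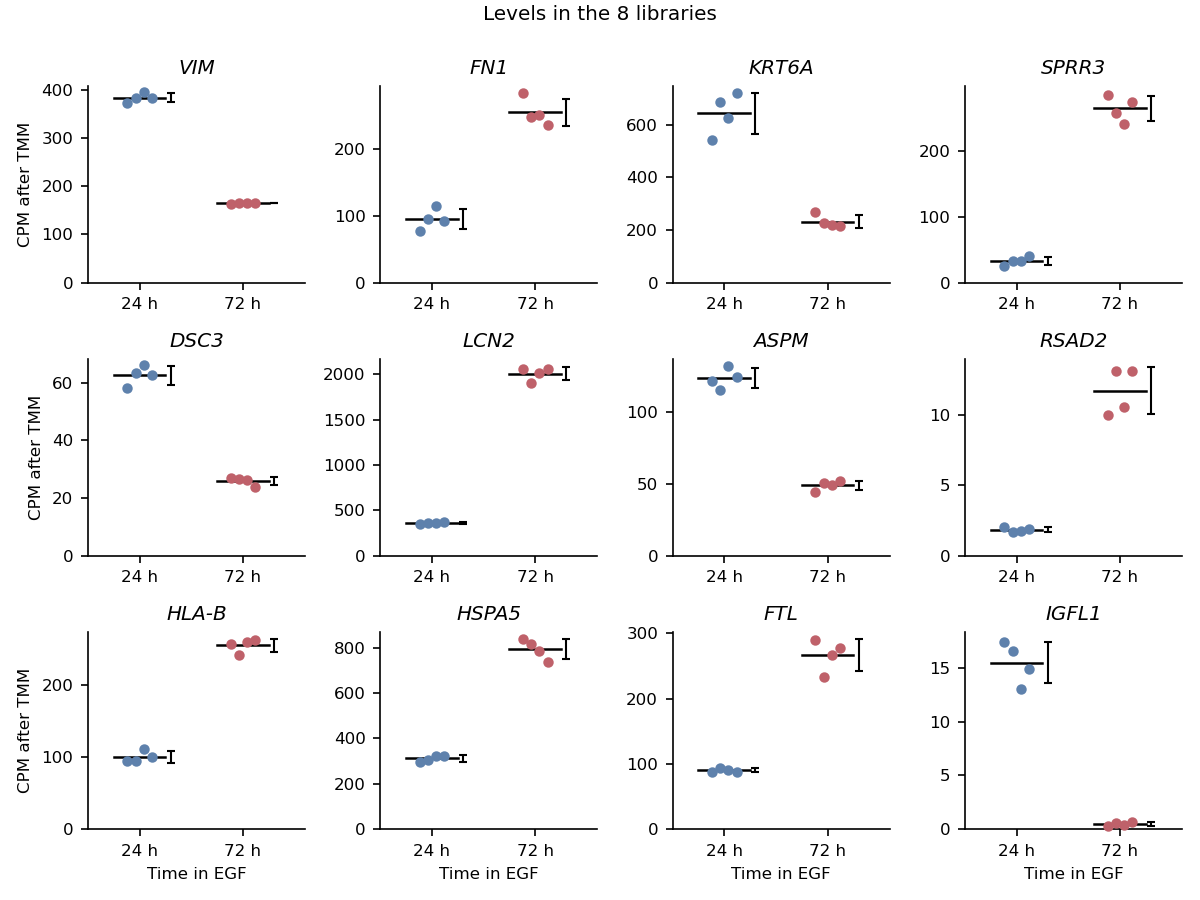
Each panel gives the CPM of a gene in the 4 libraries at 24 h and the 4 at 72 h, with a line at the mean and a bar for the SD, on an axis from 0. In all 12 genes the groups do not overlap, as for VIM with 372 to 396 CPM at 24 h and 164 to 166 CPM at 72 h.

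The mesenchymal genes that define EMT did not move as one. Of 28 tested, 8 (28.6%) were higher, 6 (21.4%) lower and 14 not called, with a median log2 fold change of 0.08. VIM, the filament protein vimentin (GRCh38 10:17228259-17237593, plus strand), was at 372, 382, 396 and 383 CPM in the libraries at 24 h and at 164, 165, 166 and 165 CPM at 72 h. It fell with a log2 fold change of -1.22 ± 0.07 (SE), adjusted p = 3.60e-12, with the groups far apart, but stayed above the 20.3 ± 1.46 CPM of untreated cells. FN1, the matrix protein fibronectin (GRCh38 2:215360440-215436172, minus strand), was at 78.3, 95.5, 115 and 93.0 CPM and then at 285, 249, 252 and 237 CPM. It rose with a log2 fold change of 1.43 ± 0.10 (SE), adjusted p = 1.37e-10, from an untreated level of 17.8 ± 2.19 CPM. The groups did not overlap for either gene, and this pair of mesenchymal markers moved in opposite directions.

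Other members followed either course. TAGLN, an actin-binding protein of smooth muscle, fell from 4.48 ± 0.685 to 0.727 ± 0.157 CPM, below its untreated mean of 1.43 CPM, and COL12A1, a fibril-associated collagen, from 2.30 ± 0.692 to 1.08 ± 0.0954 CPM. LOX, which crosslinks collagen, rose from 20.04 ± 2.29 to 34.7 ± 1.93 CPM, and ACTA2, the smooth muscle actin, from 0.734 ± 0.237 to 2.28 ± 0.388 CPM. CDH2, the gene of N-cadherin, had at most 6 counts in any library and was not tested.

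Of the 12 EMT transcription factors, 5 could be tested, 2 were lower and 0 higher, though the median log2 fold change was 0.12. The share called was thus 40%, beside 40.2% of all genes tested. The 2 lower factors were TWIST2 and KLF8, at -0.58 ± 0.19 and -0.30 ± 0.06. TWIST2 missed the threshold without replicate 1 (adjusted p = 0.0508) or replicate 4 at 72 h (adjusted p = 0.0525). With the factors per gene of the deposited normalized values, KLF8 was at -0.19 (adjusted p = 0.306). SNAI1 was at 3.06 ± 0.834 CPM at 24 h and 3.75 ± 0.505 CPM at 72 h and ZEB1 at 0.555 ± 0.360 and 0.627 ± 0.0773 CPM, neither of them called (adjusted p = 0.278 and 0.736). The difference of ZEB1 was -0.12 without replicate 1 at 24 h. SNAI2 had 0 counts in all libraries, and TWIST1 and ZEB2 had at most 8 and 1 counts in any library.

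Genes of the actin cytoskeleton were more often lower, with 11 of 30 (36.7%) lower and 2 (6.67%) higher. The median log2 fold change was -0.19, and 43.3% were called, beside 40.2% of all genes tested. MSN, or moesin, which ties actin filaments to the membrane, fell from 576 ± 33.4 to 380.1 ± 23.5 CPM (-0.60 ± 0.07 (SE), adjusted p = 1.37e-07). Its relative EZR, ezrin, was at 184 ± 23.9 and 163 ± 6.43 CPM with overlapping groups and was not called (adjusted p = 0.0556), but was lower, at -0.26 with adjusted p = 0.00104, when replicate 1 of the 24 h group was left out.

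Of 23 laminin, integrin and hemidesmosome genes, by which epithelia hold to the matrix, 8 (34.8%) were higher and 7 (30.4%) lower. The share called was 65.2%, beside 40.2% of all genes tested. COL17A1, the collagen of hemidesmosomes, was at 1.83, 1.53, 1.67 and 0.927 CPM at 24 h and at 7.86, 8.76, 6.76 and 9.39 CPM at 72 h, with no overlap. LAMA3, the alpha chain of laminin-332, rose from 18.3 ± 1.54 to 42.3 ± 3.92 CPM. LAMC1, a gamma chain of other laminins, fell from 108 to 60.8 CPM. The integrin genes ITGB6 and ITGA1 rose with log2 fold changes of 1.12 ± 0.12 and 1.55 ± 0.27, and ITGA6 fell with -0.75 ± 0.09.

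Among 19 genes of matrix proteases, the plasminogen system and their inhibitors, 8 were higher and 2 lower, with a median log2 fold change of 0.25. Both lower members, SERPINE2 and TFPI2 (-0.60 and -0.31), are protease inhibitors, and the inhibitors TIMP2 and TIMP3 were among the higher ones. TFPI2 was near the threshold (adjusted p = 0.0490) and missed it under most alternatives, among them leaving out replicates 1, 2 or 4 at 24 h or 2, 3 or 4 at 72 h (adjusted p of 0.0638 to 0.175). The collagenase MMP1 rose from 0.333 ± 0.159 to 2.22 ± 0.548 CPM, the matrilysin MMP7 from 18.6 ± 1.63 to 36.5 ± 2.84 CPM and PLAU, the urokinase that activates plasminogen, from 12.9 ± 2.08 to 25.5 ± 2.18 CPM. In the TGF-beta and BMP pathways, 12 of 31 genes (38.7%) were lower and 5 (16.1%) higher. The share called was 54.8%, beside 40.2% of all genes tested. The ligand TGFB2 rose from 75.1 ± 10.8 to 117 ± 4.86 CPM and LTBP3, which stores such ligands in the matrix, from 35.3 ± 1.13 to 66.5 ± 8.70 CPM, while the ligand BMP4 fell from 4.72 ± 1.21 to 2.57 ± 0.353 CPM.

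In the EGF pathway itself, the receptor was lower and 5 of its ligands, EGF, HBEGF, EPGN, AREG and EREG, were higher. EGFR was at 6996, 7689.8, 9047 and 7420.5 CPM at 24 h and at 6012, 5712, 6125 and 5619 CPM at 72 h, and the groups did not overlap. The log2 fold change was -0.41 ± 0.07 (SE), adjusted p = 2.93e-05, and both times were above the untreated 3474 ± 103 CPM. Among 13 receptors, ligands and receptor regulators tested, these 5 were higher, and EGFR, ERBB3 and LRIG3 were lower. The transcript of EGF itself rose from 3.76 ± 0.445 to 5.63 ± 0.554 CPM. EPGN, epigen, was at 8.16, 12.3, 10.8 and 12.4 CPM and then at 28.7, 31.8, 27.1 and 26.0 CPM. AREG, amphiregulin, rose from 53.3 ± 15.7 to 88.8 ± 20.3 CPM and EREG, epiregulin, from 5.86 ± 0.398 to 9.64 ± 1.57 CPM, with lower levels in replicate 1 than in the other 24 h libraries for AREG (31.4, 53.9, 60.3 and 67.6 CPM). LRIG3, a membrane protein related to a negative regulator of EGFR, was lower (-0.68 ± 0.11 (SE), adjusted p = 3.01e-05), but at -0.01 when scaled by the factors per gene in the deposited normalized values.

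Of 21 feedback inhibitors of ERK signaling, 4 (19%) were higher and 6 (28.6%) lower, beside 20.6% and 19.7% of all genes tested. The phosphatases DUSP1 and DUSP10, which switch off MAP kinases, rose from 4.72 to 14.9 CPM (1.67 ± 0.13 on the log2 scale) and from 17.3 to 42.3 CPM (1.29 ± 0.09). ERRFI1, or MIG6, an inhibitor that binds EGFR, was at 381, 615, 705 and 733 CPM at 24 h and at 451, 411, 350.5 and 354 CPM at 72 h. Its groups overlapped through replicate 1 at 24 h, and it was called lower with a log2 fold change of -0.64 ± 0.14 (SE), adjusted p = 0.00140. With only the 8 libraries in the fit, the adjusted p of ERRFI1 was 0.0567, and that of AREG was 0.0649.

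Of 23 immediate early transcription factors, 6 (26.1%) were higher and 3 (13%) lower, so that 39.1% were called beside 40.2% of all genes tested. ATF3, a stress-induced factor, was at 18.2, 20.6, 17.1 and 19.1 CPM at 24 h and at 52.1, 51.9, 48.7 and 49.8 CPM at 72 h, a log2 fold change of 1.43 ± 0.08 (SE), adjusted p = 8.57e-13. JUN and FOSB, of the AP-1 family, rose from 16.4 to 34.5 CPM and from 4.16 to 9.29 CPM, and EGR1 from 23.3 to 41.3 CPM. MYC, whose groups overlapped, fell from 227 ± 41.7 to 178 ± 13.1 CPM (adjusted p = 0.00669, and 0.0639 with only the 8 libraries in the fit).

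Genes of protein folding in the endoplasmic reticulum were more often higher, with 12 of 23 higher, 4 lower and a median log2 fold change of 0.30. HSPA5, the chaperone BiP (GRCh38 9:125234853-125241330, minus strand), was at 295, 305, 324 and 323 CPM at 24 h and at 840.2, 815, 785 and 736 CPM at 72 h. Its log2 fold change was 1.35 ± 0.07 (SE), adjusted p = 1.84e-13. HERPUD1, of the degradation machinery at that membrane, rose from 107 ± 3.80 to 234 ± 6.12 CPM and ERO1B, an oxidase for disulfide bonds, from 9.86 ± 0.361 to 20.5 ± 1.62 CPM. Without replicate 1 of the 72 h group, 10 members of the list were called instead of 16. Targets of ATF4, the factor of amino acid stress, were lower in 9 of 31 cases (29%) and higher in 5 (16.1%). In all, 45.2% were called, beside 40.2% of all genes tested. SLC38A1, an amino acid transporter, and PSAT1, of serine synthesis, fell with log2 fold changes of -0.75 ± 0.09 and -0.43 ± 0.09, while DDIT3, the factor CHOP, rose from 9.36 ± 1.29 to 18.1 ± 1.86 CPM.

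FTH1 and FTL encode the heavy and light chains of ferritin, the store of iron. FTL was at 88.0, 94.3, 90.6 and 87.7 CPM at 24 h and at 289.8, 233, 268 and 278 CPM at 72 h, and FTH1 rose from 2793 ± 147 to 6721 ± 272 CPM. Both genes have processed copies in the genome, between which reads may be divided. The metallothionein MT1X rose from 428 ± 13.7 to 725 ± 59.8 CPM, and of all 25 NRF2 targets and metallothioneins tested, 12 were higher and 5 lower (median log2 fold change 0.22). Lysosomal genes were higher in 18 of 40 cases and lower in 5, with a median of 0.24. LAMP3, a membrane protein of lysosomes, rose from 2.23 ± 0.295 to 9.78 ± 0.625 CPM, the protease CTSF from 4.63 ± 0.694 to 12.5 ± 0.899 CPM and SMPD1, the acid sphingomyelinase, from 5.32 ± 0.394 to 12.2 ± 0.762 CPM. CTSC, the protease cathepsin C, was the member with the largest fall, from 308 ± 24.0 to 109 ± 2.50 CPM (-1.50 ± 0.07 (SE), adjusted p = 2.23e-13).

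Of 34 genes of glycolysis and hypoxia, 9 (26.5%) were higher and 9 lower. LDHA and PKM, the last steps of glycolysis to lactate, fell from 1147 ± 51.2 to 770.2 ± 10.1 CPM and from 677 ± 16.1 to 478 ± 10.2 CPM, while ADM, a vasodilator peptide induced by hypoxia, rose from 3.72 ± 0.900 to 10.2 ± 1.22 CPM. Of 31 regulators of apoptosis, 10 (32.3%) were higher and 4 (12.9%) lower, so that 45.2% were called beside 40.2% of all genes tested. The inflammatory caspases CASP1 and CASP4 were among those higher, at log2 fold changes of 0.96 ± 0.09 and 0.66 ± 0.08. Of 20 circadian clock genes, 7 (35%) were lower and 5 (25%) higher, so that 60% were called. Examples were the factor TEF at -0.72 ± 0.16 and the repressor NR1D1 at 0.34 ± 0.10. NR1D1 missed the threshold without replicate 4 at 24 h (adjusted p = 0.0539), and with the factors per gene of the deposited normalized values TEF was at -0.54 (adjusted p = 0.305). Of 13 mitochondrially encoded mRNAs, MT-ND1 and MT-ND2 were called higher, at 0.79 ± 0.27 and 0.73 ± 0.18, and MT-ND1 was not called once any of replicates 1, 3 and 4 at 24 h or 1 and 4 at 72 h was left out (adjusted p of 0.0556 to 0.0746).

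Glycerophospholipids are the main membrane lipids, and the study asked how EGF changes the enzymes that make and remodel them. Of 62 such genes tested, 14 (22.6%) were higher and 11 (17.7%) lower, shares close to those of all genes, with a median log2 fold change of 0.01. The phospholipase PLA2G4C rose from 2.63 ± 0.563 to 7.08 ± 1.29 CPM, and PNPLA2, which releases fatty acids from stored triglyceride, from 43.2 ± 3.16 to 84.9 ± 6.76 CPM. LPCAT3, which adds polyunsaturated chains to lysophospholipids, was at 32.3, 29.8, 30.8 and 27.9 CPM at 24 h and at 40.9, 40.6, 49.0 and 45.6 CPM at 72 h (0.54 ± 0.08 (SE), adjusted p = 1.31e-05), with no overlap, and stayed below its untreated 77.3 ± 6.86 CPM. MBOAT2, an acyltransferase of the same class, fell from 292 ± 12.8 to 239 ± 14.6 CPM, and the phospholipase LIPH and the acyltransferase AGPAT5 rose with log2 fold changes of 0.32 ± 0.07 and 0.35 ± 0.11. With the factors per gene of the deposited normalized values, the adjusted p was 0.0822 for MBOAT2, 0.501 for LIPH and 0.348 for AGPAT5, which also missed the threshold without replicate 1 at 24 h (0.26, adjusted p = 0.0752). LPCAT4 at 17.5 ± 2.52 and 17.7 ± 2.33 CPM and PLD1 at 36.9 ± 4.10 and 39.6 ± 1.71 CPM had overlapping groups and were not called (adjusted p = 0.917 and 0.383). LPCAT4 was at -0.07 without replicate 1 at 24 h and at -0.06 without replicate 1 at 72 h.

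Fatty acid synthesis and desaturation genes were called in 11 of 24 cases, 6 (25%) higher and 5 (20.8%) lower, which is again close to the shares of all genes. SCD, which makes monounsaturated fatty acids, was at 2017, 1739, 1834 and 1674 CPM at 24 h and at 2607, 2547, 2912 and 2712 CPM at 72 h (0.57 ± 0.07 (SE), adjusted p = 7.91e-07), between which the groups did not overlap. Its mean of 2695 ± 160 CPM at 72 h was below the 3131 ± 347 CPM of untreated cells and the 4797 ± 220 CPM at 48 h. FADS2, of polyunsaturated fatty acid synthesis, rose from 18.0 ± 1.39 to 28.4 ± 0.683 CPM. FADS1, its partner, was at 8.76 ± 0.908 and 10.3 ± 0.769 CPM with overlapping groups and missed the threshold (adjusted p = 0.0576). It was called higher without replicate 1 at 24 h (0.31, adjusted p = 0.0168) or at 72 h (0.28, adjusted p = 0.0482), and was at -0.066 (adjusted p = 0.852) with the factors per gene of the deposited normalized values. Cholesterol synthesis and uptake genes were lower in 10 of 25 cases (40%) and higher in 2 (8%), with a median log2 fold change of -0.17. The share called was 48%, beside 40.2% of all genes tested. Targets of the liver X receptors (LXR), which sense sterols, were higher in 6 of 9 cases and lower in 1, with the sterol exporter ABCA1 rising from 2.03 ± 0.378 to 4.30 ± 0.608 CPM (1.08 ± 0.22 (SE), adjusted p = 4.77e-04).

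The libraries taken at 48 h give an intermediate time. For 46.4% of the 3402 risen genes, the mean at 48 h lay between the means at 24 and 72 h, for 38% it was already above the mean at 72 h and for 15.6% it was below that at 24 h. Over all genes tested, 29.9% had a 48 h mean between those at 24 and 72 h, 36.7% above both and 33.4% below both. For the 3248 fallen genes, the mean at 48 h was between the others for 46.2%, below that at 72 h for 41.5% and above that at 24 h for 12.3%. These shares share libraries with the call and carry no test. VIM had a mean of 104 CPM at 48 h, KRT6A of 70.2, SERPINB5 of 60.2 and ERRFI1 of 197, all lower than at either 24 or 72 h. FN1, at 67.2 CPM, was also lower at 48 h than at both. ASPM at 89.2 CPM, LCN2 at 683, AGR2 at 89.7 and FTH1 at 4612 lay between, as did HSPA5 at 340.0 CPM and SPRR3 at 48.6, both nearer to 24 h than to 72 h.

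**Figure D5:**
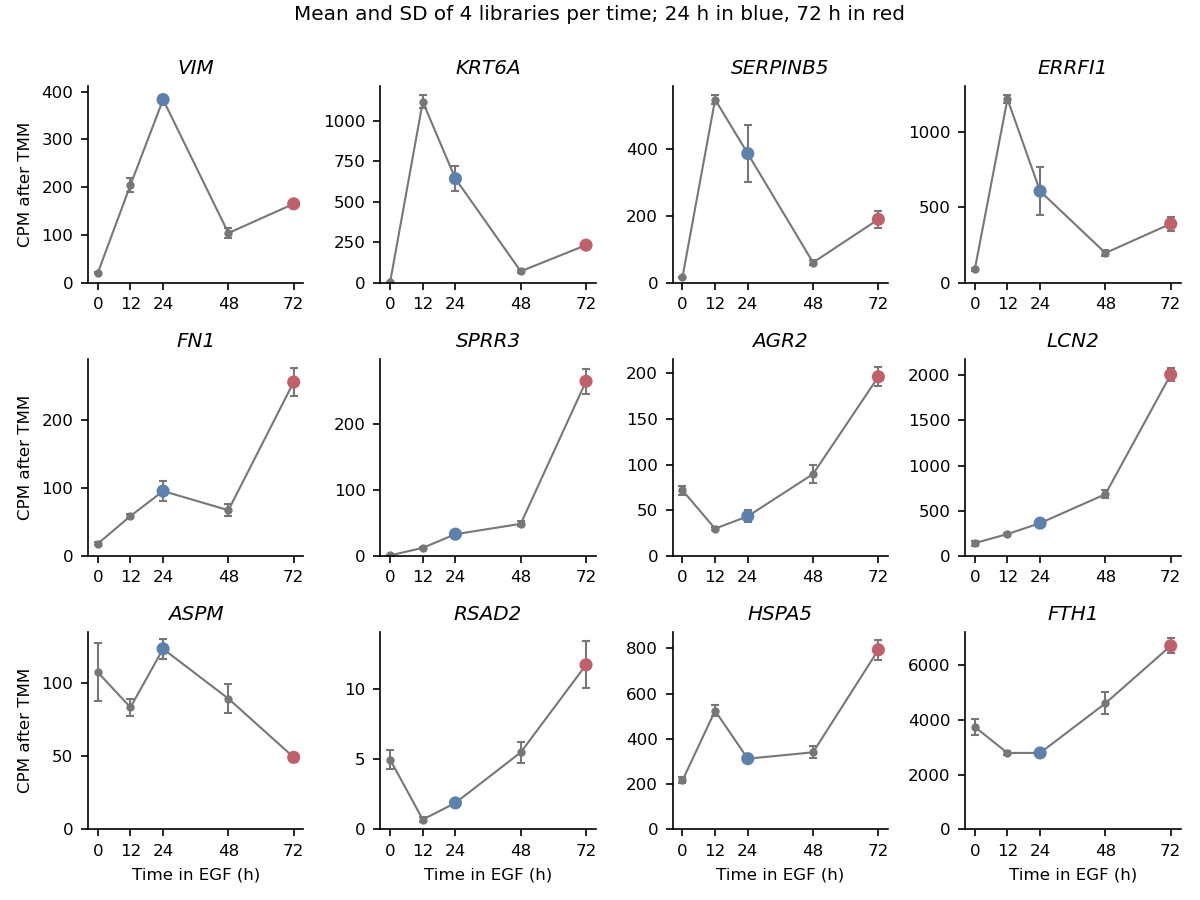
Each panel gives the mean CPM of a gene over 4 libraries, with bars for the SD, against the time in EGF in h, from untreated cells at 0, with 24 h in blue and 72 h in red. VIM, KRT6A, SERPINB5 and ERRFI1 are lowest in EGF at 48 h, while LCN2, AGR2 and FTH1 are highest at 72 h.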

How the data were processed

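RNA from 20 cultures, 4 in each of 5 groups, was sequenced with the Lexogen Corall mRNA kit. The authors deposited whole-number counts per gene, handled here as estimated counts since the counter is not given in the sources used here, nor are the aligner, the strand setting and the use of molecular identifiers. The submitters' processing notes name hg38 and DESeq2. The deposited normalized values, rounded by the authors and handled as a score, are not the counts over 1 size factor per library, since the divisor changes from gene to gene, and served only for an alternative that was chosen after seeing the data. The authors' own comparison columns (fold change, p-value, adjusted p, dispersion) were not used.

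Groups were taken from the labels. Counts of 16522 genes that passed filterByExpr, of 60271, were scaled by TMM and fitted with edgeR 4.0.16 in R 4.3.3 (glmQLFit, robust, 5 group means over 20 libraries), and 72 h was tested against 24 h with Benjamini-Hochberg adjustment at 0.05. The prior count was 0.125. The fit was tested on simulated data. Members, gene lists and named genes were chosen with earlier results of these data known. Genes were named as the 12 largest called changes in each direction with at least 5 CPM and groups that do not overlap, as a fixed set of EMT and lipid genes, and as up to 4 called members per direction of each list with at least 1 CPM. Alternatives changed the scaling, the filter, the tool, the libraries fitted and the replicate block. Same-numbered samples did not deviate together (r of -0.06 to -0.02). Of 12 pairs of replicates, none agreed within sampling noise (chi-square per degree of freedom 3.54 to 12.5). Depth sets counting error, which the intervals cover alone. Gene positions are from GENCODE 29 on GRCh38 and promoters from RefSeq. Some genes that the rule would name are not reported here.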

Additional observations from a re-analysis of the deposited data

Results flagged for a closer look

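Groups of 4 values were examined for the genes named here, the total count and the mitochondrial share. In 17 of 316 groups (5.38%), the highest or lowest library was separated from the other 3 by more than Dixon's limit. Chance alone gives about 1 in 20 such groups. At 24 h, replicate 1 was apart for ACTA2 (1.09 CPM), MMP1 (0.0989 CPM) and FOSB (3.31 CPM). Replicate 2 was apart for SPRR2D (5.09 CPM, against 5.59 to 5.64 CPM in the others) and replicate 4 for MCM4 (100.1 CPM). Replicate 3 was apart for ZP4 (0.0641 CPM, its single count), KIF14 (44.8 CPM), IL1B (0.577 CPM) and MT1X (408 CPM).

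At 72 h, replicate 1 held 7 of the 8 values apart among these named genes. This did not hold over all 10869 genes with at least 5 CPM at 72 h. There, replicate 2 was apart most often, for 297 genes (2.73%), and replicate 1 for 111 (1.02%). Among the named genes, replicate 1 was low for IL13RA2 (3.89 CPM) and KIF14 (15.2 CPM, against 18.0 to 18.3 CPM). It was high for CDKN1A (562 CPM, against 431 to 452 CPM), SPRR2D (40.5 CPM), KRT19 (455 CPM), EGR1 (52.2 CPM) and PKM (493 CPM). Replicate 2 was high for MCM6 (117 CPM). None of these values closed the gap between the groups, which did not overlap for any of these genes.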

How the results depend on the processing

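The number of genes called was 4991 to 7368 under the other scalings, filters, tools and sets of libraries, and 5808 to 6509 when 1 library was left out. With the replicate number as a block it was 6870 (3503 higher, 3367 lower), and same-numbered samples share only a number. A test against 1.5-fold (glmTreat), which asks for more than a difference from 0, called 1106 genes, 930 higher and 176 lower. Asking for 10 or more counts in each library left 12886 genes tested in place of 16522. With that filter 1653 genes were called beyond 1.5-fold in place of 2785, and the cause was not tested. Leaving out 1 library gave 2616 to 2922 such genes, 3025 to 3307 higher and 2691 to 3202 lower.

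Under glmTreat 21 mitotic and 18 interferon-stimulated genes were called, 8 lysosomal, 7 MHC class I and 6 luminal. It called 5 each of the keratins, the laminins and integrins and the glycerophospholipid genes, and 4 each of the serpins and kallikreins and the mesenchymal genes. It called 3 each of the junction, endoplasmic reticulum, immediate early, protease and S100 genes, and 2 each of the ERK feedback, glycolysis, identity, NRF2, ribosome biogenesis and TGF-beta genes. There was 1 each for actin, apoptosis, ATF4, clock, lineage and EGF receptor genes. None (0) was called for CDK inhibitors, cholesterol, S phase, EMT factors, fatty acid, LXR, mitochondrial and other cell type lists.

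With the factors per gene of the deposited normalized values, chosen after seeing the data, 7 ATF4, 15 S-phase, 5 EGF receptor and ligand, 1 EMT factor and 10 endoplasmic reticulum genes were called, and FADS1 was at -0.066. Asking for 10 or more counts in each library left 12 cytokine and 5 EGF receptor and ligand genes. With no filter, 1 mitochondrial mRNA was called. The cause was not tested. With 1 library left out, the calls were 4 to 9 for CDK inhibitors, 1 to 2 for EMT factors, 10 to 15 for endoplasmic reticulum genes and 1 to 2 for mitochondrial mRNAs. With 1 library left out, the log2 fold change of ZEB1 was -0.12 to 0.65 and that of LPCAT4 -0.070 to 0.093. Of 33535 genes with a count in any library, those under the filter could not be judged at this depth.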
